A study of Ovis aries with 40 samples.

Results

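Cathepsins are proteases that break down protein inside the lysosome. Cathepsins B, H, K, L, S and Z are cysteine proteases of the papain family, whereas cathepsin D is an aspartic protease. Cystatins are small proteins that bind cysteine cathepsins tightly and block them. Cystatin C is secreted and cystatin B is cytosolic. In muscle, lysosomes take up material delivered by autophagy, and in meat science cathepsins and cystatins are studied for their part in the ageing of the carcass. Macrophages, fibroblasts and other cells that lie between the fibres are also rich in lysosomes.

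The genes examined here were CTSB, CTSD, CTSH, CTSK, CTSL, CTSS, CTSZ, CST3 and CSTB, chosen by name. They were measured through all probe sets of the GeneChip Bovine Genome array that the platform annotation assigns to 1 of these symbols alone. This gave 15 probe sets for 8 genes, of 24128 probe sets and 9155 genes in all. CSTB, the cytosolic cystatin B, had no such probe set and was not analysed here. Of the 15 probe sets, CTSB had 6, CST3 had 3 and each other gene had 1. Where a gene had several, the one with the highest mean signal stood for it.

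The samples were longissimus muscle (LM), the long muscle of the back, of 40 Poll Dorset sheep at 78 weeks of age, each an offspring of 1 of 6 sires and each hybridised to 1 array. The 19 high muscling animals came from 3 sires with a high breeding value for eye muscle depth (8 from sire 11, 7 from sire 2 and 4 from sire 7). The 21 low muscling animals came from 3 sires with a low one (8 from sire 16, 5 from sire 17 and 8 from sire 5). The labels name no transgene and no treatment, and they give neither sex, dam nor array batch. No sire had progeny in both muscling groups, so muscling and sire can be told apart only through the spread between the 3 sires of a group.

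The authors deposited MAS5 signals, a linear intensity in arbitrary units, scaled so that the trimmed mean of every array was 200. Signals of different probe sets do not give relative amounts of RNA, and the bovine probes can differ in sequence from the sheep transcripts. The 40 arrays correlated with each other at a Pearson r of 0.902 to 0.963 over the 6360 detected genes, those with a mean signal of at least 61.8, and no 2 arrays were identical. Markers of muscle fibres were present as the label says, with 9 of 9 measured genes detected, while MYF5 of satellite cells and HBB, ALAS2 and SLC4A1 of red blood cells were below the detection minimum and HBA of red blood cells was above it. The log2 ratio of 3' to 5' signal of the actin and GAPDH control probe sets, a measure of RNA degradation, was 0.132 ± 0.0635 (SD, n = 19) in high and 0.115 ± 0.0663 (n = 21) in low muscling animals. Precision of the comparison of high with low muscling is limited by the number of sires, since no sire had progeny in both groups. Precision of comparisons between sires of a group is limited by the number of arrays.

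Of the 8 measured genes, 7 were detected. CTSL, the endopeptidase cathepsin L, was not, with a mean signal of 12.7 ± 9.68 (SD, n = 40) and a range of 0.7 to 38.9. The groups overlapped, at 0.7 to 27.6 in high and 1.6 to 38.9 in low muscling animals. Without the filter on low signal, its difference of high minus low muscling was -0.69 ± 0.57 (log2, SE; limma adjusted p = 0.580). The 5 weaker probe sets of CTSB, with mean signals of 10.8 to 53.2, were also below the minimum, and their Pearson r with the main CTSB probe set was -0.203 to 0.201 over the 40 animals. CTSB is therefore described by its main probe set alone.

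With sire as a random block, the test of high against low muscling called cathepsin H and the main probe set of cystatin C, in opposite directions. CTSH was lower in high muscling and the main CST3 probe set was higher. Another CST3 probe set had a difference of -0.39 (log2, limma adjusted p = 0.178). The other 5 detected genes did not pass the test. The comparison used limma on log2 signals of all 6360 detected genes and Benjamini-Hochberg adjustment, and sire entered as a random block (correlation of 0.135 between progeny of a sire). It called 495 genes, or 7.78% of those tested, of which 145 (2.28%) were higher and 350 (5.5%) lower in high muscling. The median difference over all detected genes was -0.04 (log2). The 2 calls of 7 members are read against this background, and at 7 genes they give no share that could be set apart from it.

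**Figure D1:**
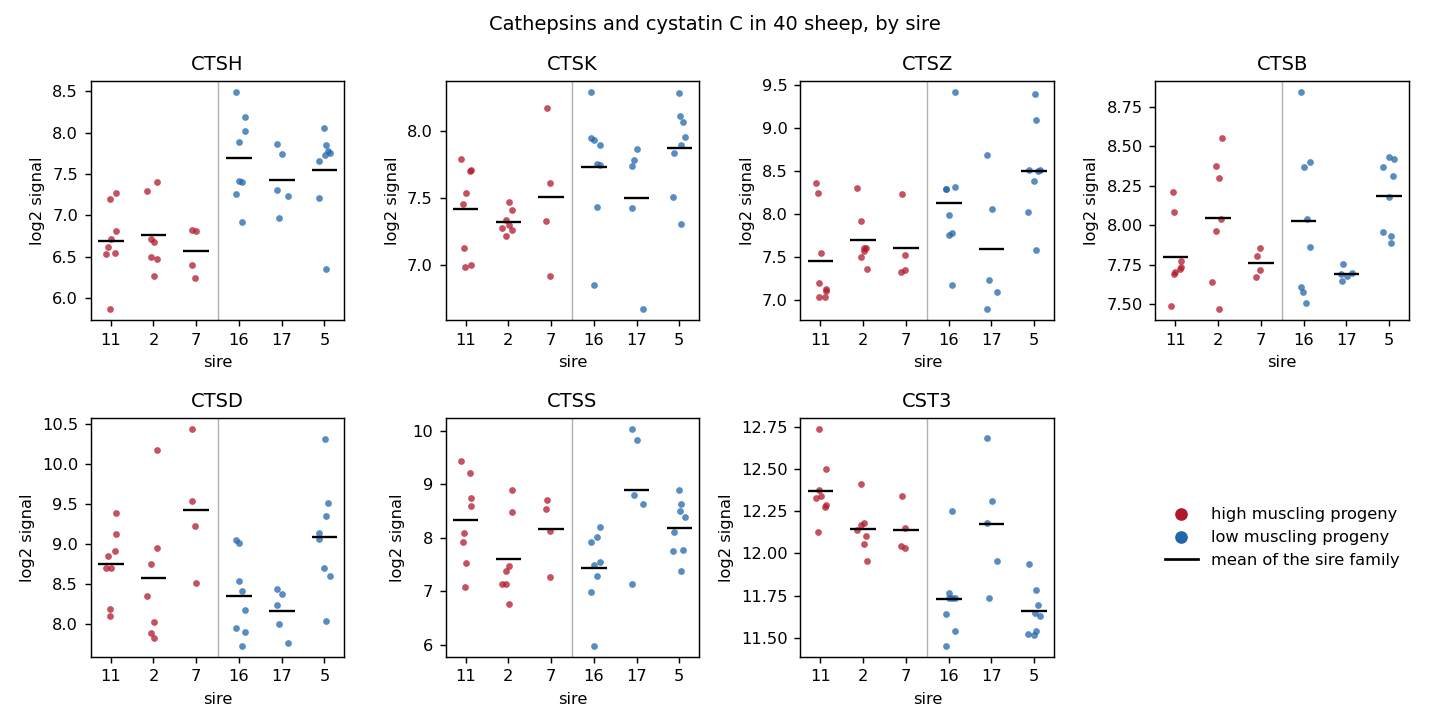
Log2 signal (vertical axes) of the 7 detected genes in the 40 animals, by sire (horizontal axes), with red points for high muscling progeny, blue points for low muscling progeny and black lines for the mean of each sire family. For CTSH the 3 red sire means (6.57 to 6.76) all lie below the 3 blue ones (7.42 to 7.70), while for CST3 the mean of sire 17 (12.17) lies among the red ones.

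CTSH encodes cathepsin H, which removes amino acids from the amino end of its substrates. Its signal in high muscling animals was 58.3 at the lowest, 102.4 at the median and 169.5 at the highest. In low muscling animals it was 81.7, 211.7 and 359.7. All 19 high muscling animals lay below the median of the low muscling group, and 13 of the 21 low muscling animals lay above every high muscling animal. The difference was -0.88 ± 0.20 (log2, SE; 95% interval -1.28 to -0.48, limma adjusted p = 0.0047), a 1.84-fold higher level in low muscling.

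The sire families of a muscling group were alike in CTSH. The sire means were 6.69, 6.76 and 6.57 (log2) for sires 11, 2 and 7, and 7.70, 7.42 and 7.55 for sires 16, 17 and 5. All 3 high sires thus lay below all 3 low sires, as was the case for 11.4% of the detected genes, and the reverse held for 7.85%. Of the variation between animals, 50.4% lay between the muscling groups, 2.18% between sires of a group and 47.4% within sire families. Over all detected genes the medians of these shares were 5.44%, 16.1% and 74.1%. Leaving out the family of sire 16 (-0.81, adjusted p = 0.0876) or that of sire 5 (-0.89, adjusted p = 0.0557) ended the call. Of all detected genes, limma called 29 without sire 16 and 23 without sire 5. The call of CTSH also ended with the 6 sire means as samples (-0.88, limma unadjusted p = 1.3e-04, adjusted p = 0.129). In that last fit limma called 0 genes (886 at an unadjusted p under 0.05).

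CST3 encodes cystatin C. Its main probe set had a signal of 3963.4 at the lowest, 4637 at the median and 6833.9 at the highest in high muscling animals. In low muscling animals it had 2803.2, 3405.8 and 6575.5. All 19 high muscling animals lay above the median of the low muscling group, and 16 of the 21 low muscling animals lay below every high muscling animal. The difference was 0.40 ± 0.11 (log2, SE; 95% interval 0.18 to 0.62, limma adjusted p = 0.018). Sire 17 stood apart from the other low muscling sires, with signals of 3409.9, 3973.8, 4633, 5081 and 6575.5 in its 5 progeny. Without them the difference was 0.53 (adjusted p = 4.5e-05). The call ended when the family of sire 11 (0.32, adjusted p = 0.0635), of sire 16 (0.34, adjusted p = 0.231) or of sire 5 (0.30, adjusted p = 0.321) was left out. It also ended with sire means as samples (0.36, limma unadjusted p = 0.0591, adjusted p = 0.374). Of the variation between animals, 41.4% lay between the muscling groups, 25.4% between sires of a group and 33.2% within sire families. The correlation shared by all genes does not allow for a larger spread between sires in 1 gene.

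The 3 probe sets of CST3 did not give 1 direction. All were bright, with mean signals of 4247, 3069 and 2389. The annotation pairs the second with the bovine reference mRNA of the gene, and the brightest and the third with expressed sequence tags. In the second probe set the high muscling animals had signals of 1440.6, 2539.4 and 3798.8 (lowest, median and highest) and the low muscling animals 1422.9, 3565 and 4911. Here 17 of 19 high muscling animals lay below the median of the low muscling group, and 8 of 21 low muscling animals lay above every high muscling animal.

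In a fit over the 7968 detected probe sets with 1 symbol, the second probe set differed by -0.39 ± 0.18 (log2, SE; 95% interval -0.75 to -0.04, unadjusted p = 0.0307, limma adjusted p = 0.178), against 0.40 ± 0.11 for the brightest (adjusted p = 0.0191). The third gave 0.16 ± 0.11 (95% interval -0.05 to 0.38, adjusted p = 0.408), with signals of 1821.3, 2493.6 and 3117.4 in high and 1623.9, 2168.4 and 3518 in low muscling animals. With the mean over the 3 probe sets as the value of the gene, the difference was 0.06 (adjusted p = 0.691). The direction given for CST3 thus holds for its brightest probe set and not for the gene as measured by the second.

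**Figure D2:**
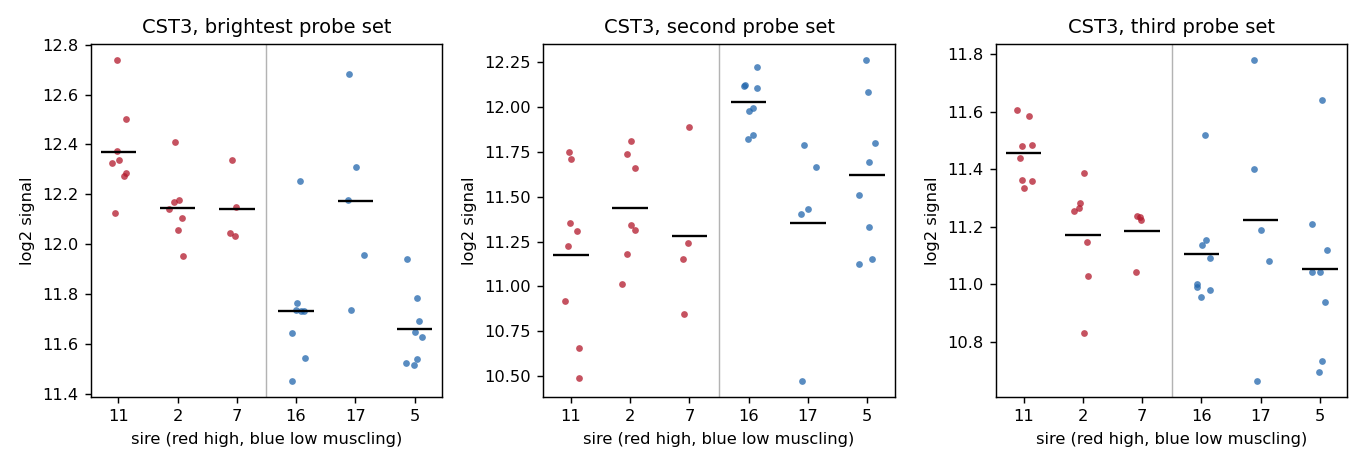
Log2 signal (vertical axes) of the 3 probe sets of CST3 in the 40 animals, by sire (horizontal axes), with red for high and blue for low muscling progeny and black lines for the mean of each sire family. The brightest probe set is highest in sire 11 (mean 12.37), where the second has its lowest sire mean (11.18), and the second is highest in sire 16 (12.03).

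From animal to animal, the brightest and the second CST3 probe set ran against each other. Their Pearson r was -0.664 over the 40 animals (Spearman rho -0.610, adjusted p = 3.0e-05 for r and 1.5e-04 for rho over the 3 pairs, two-sided permutation test). It was -0.644 without the 2 animals farthest from the median, and -0.498 after subtraction of sire means (adjusted p = 0.0022, permutations within sires). The second and the third had an r of -0.590 (rho -0.547, adjusted p = 5.0e-05 for r and 2.8e-04 for rho), -0.499 without the 2 farthest animals and -0.522 with sire means removed (adjusted p = 0.0022). The brightest and the third went together, at 0.730 (rho 0.771, adjusted p = 3.0e-05), 0.683 without the 2 farthest animals and 0.693 with sire means removed (adjusted p = 1.2e-04).

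**Figure D3:**
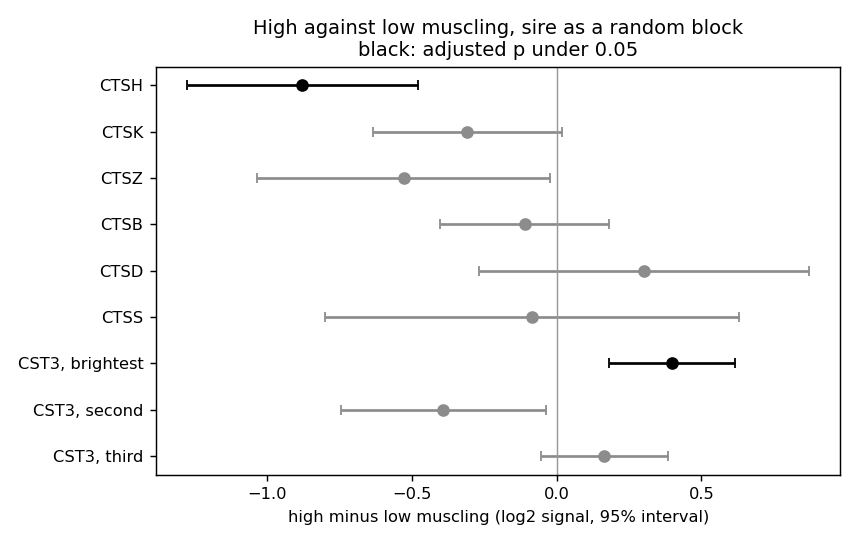
Difference of high minus low muscling (horizontal axis, log2 signal) for 6 cathepsins and the 3 probe sets of CST3, with 95% intervals from limma with sire as a random block. The cathepsins come from the fit over detected genes and the CST3 probe sets from the fit over detected probe sets. Black marks an adjusted p under 0.05, reached by CTSH at -0.88 and the brightest CST3 probe set at 0.40, and the second CST3 probe set lies at -0.39.

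CTSZ encodes cathepsin Z, a carboxypeptidase. It had signals of 130.9, 183.8 and 328.4 (lowest, median and highest) in high and of 118.7, 314.4 and 686.5 in low muscling animals. The groups overlapped, although 17 of 19 high muscling animals lay below the low muscling median and 8 of 21 low muscling animals lay above every high muscling animal. The difference of -0.53 ± 0.25 (log2, SE; 95% interval -1.03 to -0.02, unadjusted p = 0.0405) did not pass after adjustment (limma adjusted p = 0.203). It passed without the progeny of sire 17 (-0.74, adjusted p = 0.0197), whose values of 118.7, 136, 149.7, 266.3 and 411.4 included the lowest of all 40, and without a block for sire (-0.57, adjusted p = 0.0198). Without the progeny of sire 5 it was -0.31 (adjusted p = 0.737).

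CTSK encodes cathepsin K, a strong collagenase best known from osteoclasts. The signals were 120.9, 161.4 and 287.6 in high and 101.7, 227.9 and 312.6 in low muscling animals. Both the lowest and the highest animals were in the low muscling group, while 18 of 19 high muscling animals lay below the low muscling median. The difference was -0.31 ± 0.16 (log2, SE; 95% interval -0.63 to 0.02, limma adjusted p = 0.261), and it passed only without a block for sire (adjusted p = 0.0315). Sire 2 had a narrow range of 148.5 to 176.9 in its 7 progeny, against 101.7 to 232.6 in the 5 of sire 17.

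CTSB, which cuts within proteins and also from the carboxyl end, CTSD and CTSS overlapped widely between the groups. CTSB had signals of 176.8, 218.2 and 376.3 in high and of 181.4, 243.7 and 460.4 in low muscling animals, and its difference was -0.11 ± 0.14 (log2, SE; 95% interval -0.40 to 0.18, limma adjusted p = 0.722). CTSD, the aspartic protease, had 225.5, 431.3 and 1396.7 in high and 210.8, 347.3 and 1281.2 in low muscling animals, with a difference of 0.30 ± 0.28 (95% interval -0.27 to 0.87, adjusted p = 0.587) that was 0.10 without the progeny of sire 7 and 0.60 without those of sire 5. CTSS encodes cathepsin S, which trims the invariant chain of MHC class II in antigen-presenting cells. It had 108.4, 271 and 693.6 in high and 62.9, 257.8 and 1051.3 in low muscling animals. Its difference was -0.09 ± 0.35 (95% interval -0.80 to 0.63, adjusted p = 0.926) and changed sign without the progeny of sire 17 (0.22) or sire 2 (0.14).

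The members also differed in how much they varied. Over the 40 animals the standard deviation of log2 signal was 0.86 for CTSS, 0.69 for CTSD, 0.65 for CTSZ and 0.63 for CTSH, at percentiles 94.1, 87.4, 85.2 and 83.6 of the detected genes. It was 0.40 for CTSK, 0.34 for CTSB and 0.34 for CST3, at percentiles 53.7, 38.9 and 37.6.

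Differences between sires of the same muscling group were tested with 4 contrasts in 1 moderated F test of limma over all detected genes, which called 1402 genes (22%). Of the 7 members, CST3 by its brightest probe set (adjusted p = 0.0078), CTSS (0.0441) and CTSD (0.0482) passed. CTSB (0.129), CTSZ (0.182), CTSK (0.570) and CTSH (0.856) did not. The 3 of 7 are set beside 22% of all genes. In the fit over detected probe sets, the F test gave the second CST3 probe set an adjusted p of 0.099 and the third 0.25. Neither passed, against 0.0082 for the brightest. The call of CST3 ended with the family of sire 17 left out (adjusted p = 0.253) and with the mean over its probe sets (0.239), and CTSB passed without sire 16 (0.028).

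For CTSS the sire means ran from 7.43 (sire 16) to 8.89 (sire 17) within low muscling and from 7.61 (sire 2) to 8.32 (sire 11) within high muscling. The 5 progeny of sire 17 had signals of 141, 398.2, 444.9, 910.6 and 1051.3, of which the last 2 lay above all other animals. The 8 progeny of sire 16 ran from 62.9 to 294.8. The call was lost without sire 17 (adjusted p = 0.165), 16 (0.252), 2 (0.0652) or 11 (0.0907), and without the filter on low signal (0.0689).

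For CTSD the highest sire means were those of sire 7 in high muscling (9.43) and sire 5 in low muscling (9.09), and the lowest were those of sire 2 (8.57) and sire 17 (8.16). The 4 progeny of sire 7 had signals of 364.3, 599.2, 745.8 and 1396.7, and the 5 of sire 17 had 215.8, 255.6, 301.2, 330.2 and 347.3. This call stood close to the threshold and held in 1 of 11 alternatives, the one without sire 2, with adjusted p of 0.0291 to 0.243. In CTSB, sire 17 had a very narrow range, with 200, 204.9, 206.3, 207.5 and 215.9 in its 5 progeny, against 181.4 to 460.4 in the 8 progeny of sire 16.

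Over the pooled muscling groups, several cathepsins rose and fell together, and the main CST3 probe set ran against them. In high muscling animals alone, or with sire means removed, 0 pairs passed, and in low muscling animals alone 3 did. Of the 21 pairs of detected members, 7 passed a two-sided permutation test over the 40 animals (100000 permutations, Benjamini-Hochberg adjusted over the 21 pairs). The 3 positive pairs joined CTSH, CTSK and CTSZ. CTSK and CTSZ had a Pearson r of 0.587 (Spearman rho 0.602, adjusted p = 4.7e-04), and CTSH and CTSZ had 0.582 (rho 0.556, adjusted p = 4.7e-04). CTSH and CTSK had 0.410 (rho 0.412, adjusted p = 0.0248), which fell to 0.286 without the 2 animals farthest from the median (adjusted p = 0.192). The adjusted p of rho for the 7 pairs was 0.0007 to 0.0251.

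The 4 negative pairs all held CST3. Over all detected genes, the absolute r of its main probe set had a median of 0.272, and the lowest r was -0.911. Negative r of this size were thus not shown to be particular to cathepsins. Its r was -0.628 with CTSH (rho -0.598, adjusted p = 4.2e-04) and -0.603 with CTSZ (rho -0.594, adjusted p = 4.2e-04). With CTSB it was -0.477 (rho -0.480, adjusted p = 0.00815) and with CTSK -0.453 (rho -0.477, adjusted p = 0.0119). Without the 2 farthest animals these 4 were -0.535, -0.557, -0.428 and -0.572, and the first 2 positive pairs were 0.587 and 0.559, while CTSB with CTSZ (0.368, adjusted p = 0.0519 over all animals) passed at 0.427 (adjusted p = 0.0228). The second CST3 probe set had positive r with the same 4 cathepsins, 0.443 with CTSH, 0.355 with CTSZ, 0.373 with CTSB and 0.159 with CTSK. The third had the sign of the brightest, with -0.476, -0.393, -0.396 and -0.330 in the same order. The sign of these 4 pairs thus differed between the probe sets.

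Progeny of 1 sire are not independent, and the muscling difference itself enters such correlations. After subtraction of the sire means, and with permutations kept within sires, 0 of the 21 pairs passed after adjustment and 6 had an unadjusted p under 0.05. The r of CTSH with CTSZ was then 0.450 (adjusted p = 0.0801), that of CTSK with CTSZ 0.446 (0.0801) and that of CST3 with CTSH -0.335 (0.149). CTSS, which had r of 0.173, 0.253 and 0.179 with CTSH, CTSK and CTSZ over all animals, had 0.402, 0.394 and 0.423 within sires (adjusted p = 0.0801, 0.105 and 0.0801). CTSD had an r between -0.179 and 0.189 with every other member over all animals. CTSS and CTSK lie next to each other in the annotated sheep genome (ARS-UI_Ramb_v3.0).

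**Figure D4:**
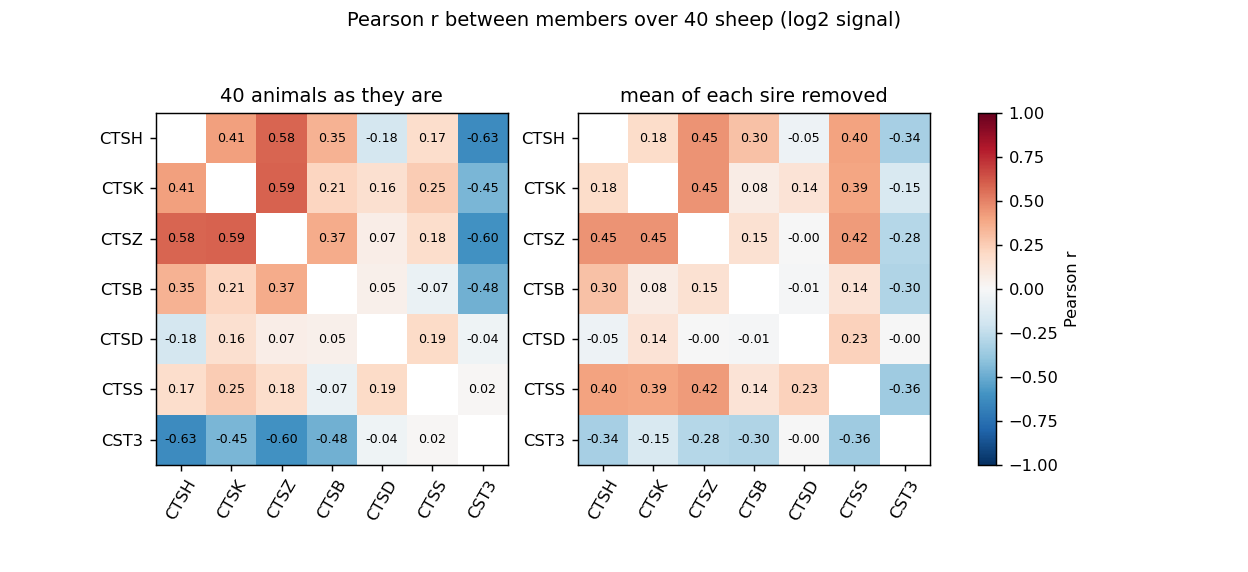
Pearson r of log2 signal between the 7 detected genes over 40 animals, as they are (left) and with the mean of each sire removed (right), with blue for negative and red for positive values. On the left CTSH, CTSK and CTSZ are joined by r of 0.410 to 0.587 and CST3, by its brightest probe set, is negative with CTSH (-0.628) and CTSZ (-0.603), and on the right CTSS has r of 0.394 to 0.423 with these 3 cathepsins.

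Muscle homogenate holds several cell types, and in such bulk samples fewer cells of a type and less RNA per cell cannot be told apart. Of the macrophage markers, 3 passed as lower in high muscling. All 10 detected markers of 15 listed had a difference below 0, with a median of -0.58 (log2) beside -0.04 over all detected genes, and the 3 that passed (5.5% of all genes passed as lower) were AIF1 (-0.95 ± 0.25, adjusted p = 0.0156), LAPTM5 (-0.57 ± 0.15, adjusted p = 0.0147) and ITGB2 (-0.63 ± 0.20, adjusted p = 0.0455). Their summed signal was 975.9 to 1926 in high and 1173 to 3613 in low muscling animals, and C1QC, PTPRC and MSR1 were below the detection minimum. Of 9 detected fibroblast markers 7 had a difference below 0 (median -0.52). COL1A1, COL1A2, COL3A1, DCN and FBN1 passed as lower (5 of 9, beside 5.5% of all genes), with FBN1 at -0.79 ± 0.21 (adjusted p = 0.0131), and THY1 passed as higher (1 of 9, beside 2.28%, at 0.64 ± 0.15, adjusted p = 0.0054). Their summed signal was 5983 to 13576 in high and 8826 to 25457 in low muscling animals. Of the 9 muscle fibre markers 0 passed (median 0.05, unadjusted p of 0.064 for MYH1 at the least), and their summed signal was 188270 to 257800 in high and 184750 to 252530 in low muscling animals. Of the called markers, LAPTM5 (adjusted p = 0.048) and COL1A1 (0.0078) also passed the moderated F test between sires of a group. The part of these cell types in the values of the cathepsins was not tested.

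Cathepsins H, Z and K followed the macrophage markers from animal to animal. The mean log2 signal of the 10 markers had a Pearson r of 0.733 with CTSH (Spearman rho 0.686), 0.728 with CTSZ (rho 0.723) and 0.661 with CTSK (rho 0.675). The adjusted p were 5.3e-05, 5.3e-05 and 8.4e-05 over the 21 relations of 7 members with 3 marker lists (two-sided permutation test). Those of rho were the same, and the unadjusted p of CTSH and CTSZ was 1e-05, the smallest that 100000 permutations can give. Without the 2 animals farthest from the median, r was 0.707, 0.716 and 0.674. With the mean of each sire removed it was 0.531, 0.581 and 0.520 (adjusted p = 0.0052, 0.0022 and 0.0052, permutations within sires). In high muscling animals alone the r of CTSH was 0.294 (adjusted p = 0.522), that of CTSZ 0.191 (0.706) and that of CTSK 0.190 (0.706). In low muscling animals alone all 3 passed, with 0.63 for CTSH (adjusted p = 0.00805), 0.83 for CTSZ (2.1e-04) and 0.74 for CTSK (0.0014).

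CTSS behaved differently with and without the sire means. Its r with the macrophage markers was 0.251 over the 40 animals as they are (rho 0.239, adjusted p = 0.206) and 0.641 with the mean of each sire removed (adjusted p = 6.3e-04). CTSB had an r of 0.446 (rho 0.372, adjusted p = 0.0098) over all animals, 0.447 without the 2 farthest ones and 0.319 within sires (adjusted p = 0.187). CTSD had -0.0415 (adjusted p = 0.799). The main CST3 probe set had an r of -0.758 (rho -0.751, adjusted p = 5.3e-05), -0.738 without the 2 farthest animals and -0.485 within sires (adjusted p = 0.0134), whereas over all animals the second CST3 probe set had 0.594 and the third -0.481.

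**Figure D5:**
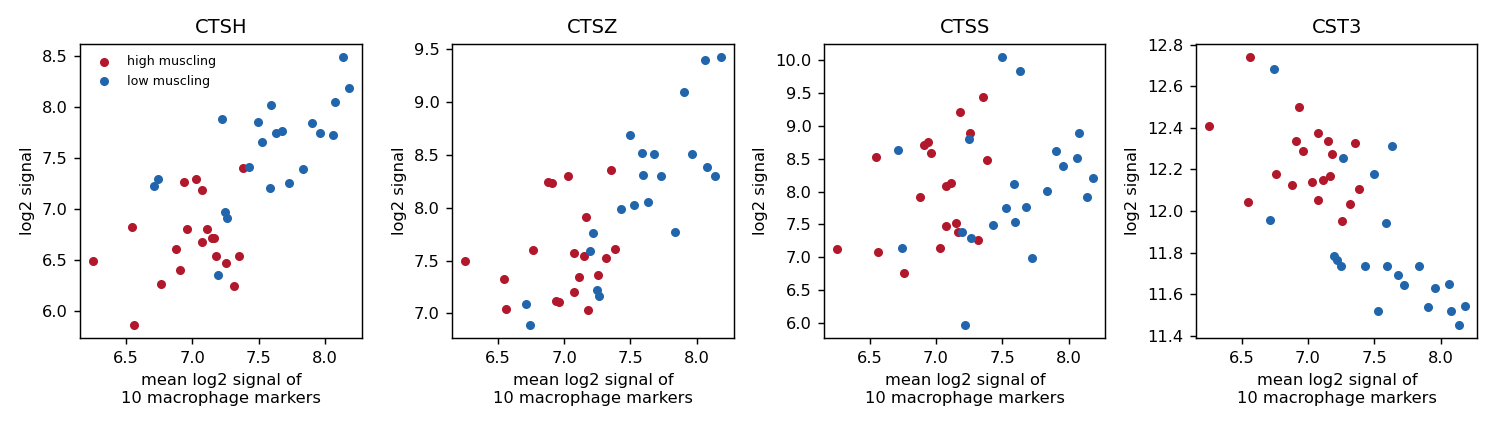
Log2 signal of CTSH, CTSZ, CTSS and the brightest CST3 probe set (vertical axes) against the mean log2 signal of 10 macrophage markers (horizontal axes) in 19 high muscling (red) and 21 low muscling animals (blue). CTSH and CTSZ go up with the markers (r of 0.733 and 0.728), CST3 goes down (-0.758), and CTSS shows little relation before sire means are removed (0.251).

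With the mean of 9 fibroblast markers, r was 0.667 for CTSZ (rho 0.711, adjusted p = 5.3e-05), 0.598 for CTSK (rho 0.635, adjusted p = 1.1e-04), 0.570 for CTSH (rho 0.595, adjusted p = 3.4e-04) and -0.586 for CST3 (rho -0.565, adjusted p = 2.1e-04). CTSB had 0.380 (rho 0.327, adjusted p = 0.0334 for r and 0.0757 for rho), and without the 2 farthest animals 0.338 (adjusted p = 0.0723). For the other 4 these values were 0.660, 0.542, 0.638 and -0.542. With sire means removed, CTSK (0.519, adjusted p = 0.0067) and CTSZ (0.519, adjusted p = 0.0052) still passed and CTSH (0.294, adjusted p = 0.197), CTSB (0.186, adjusted p = 0.344) and CST3 (-0.193, adjusted p = 0.314) did not. In high muscling animals alone CTSZ passed (0.658, adjusted p = 0.0485). In low muscling animals alone CTSB (0.685, adjusted p = 0.0035), CTSZ (0.561, 0.024) and CTSH (0.523, 0.0385) passed. CST3 did not pass there (-0.427, adjusted p = 0.101), and CTSK stood at the threshold without passing. With the mean of the muscle fibre markers, CTSK alone passed, at -0.359 (rho -0.430, adjusted p = 0.0452), -0.414 without the 2 farthest animals and -0.294 within sires (adjusted p = 0.235).

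The genes most like each member, by Pearson r with all other detected genes over the 40 animals, are given as a description. CTSH was most like F13A1, a coagulation factor subunit made by tissue macrophages (r = 0.793), and LGALS3, galectin-3 (0.775). CTSZ was most like COX6A1, a subunit of cytochrome c oxidase (0.770), and VAMP8, a protein of endosomal fusion (0.748). CTSK was most like MARCKS, an actin-binding protein kinase C substrate (0.742), and FLI1, a transcription factor of endothelial and blood cells (0.721). For CTSS they were IFIT5, an interferon-induced gene (0.537), and MS4A8 (0.519). For CTSD they were SBF2 (0.672) and NRP1, a coreceptor of endothelial growth factor (0.620), and for CTSB FBXO6, part of a ubiquitin ligase (0.585), and MCFD2, a cargo receptor subunit (0.575).

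The main CST3 probe set had far closer neighbours than the cathepsins, ZBTB18, a transcriptional repressor (0.912), and EGLN1, a prolyl hydroxylase of the hypoxia response (0.902). The second CST3 probe set had an r of -0.669 with ZBTB18. Its own closest genes were RHOC, a small GTPase (0.767), and MORF4L2 (0.760), and those of the third were NDUFS1, a subunit of complex I (0.827), and ARIH1 (0.807). These neighbours of the other probe sets were looked up after the disagreement was seen.

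Of 78 other detected genes of lysosomes, autophagy and protease inhibition, 3 (3.85%) passed between high and low muscling, beside 7.78% of all genes. Of 9 detected lysosomal proteases other than the members, 0 passed in limma and 8 had a difference below 0 (median -0.15, log2). At an unadjusted p under 0.05 there were 0 of these 9, beside 21.8% of all genes. CTSW, a cathepsin of cytotoxic lymphocytes (-0.60 ± 0.34, adjusted p = 0.317), and CTSA, a carboxypeptidase (-0.24 ± 0.19, adjusted p = 0.486), had the smallest p. Of 4 detected cystatins and other protease inhibitors 0 passed (1 at an unadjusted p under 0.05, median -0.17), with SERPING1, the C1 inhibitor, at -0.98 ± 0.39 (unadjusted p = 0.0155, adjusted p = 0.117) and SERPINB1 at -0.33 ± 0.34 (adjusted p = 0.630). Of 21 detected membrane proteins and hydrolases of the lysosome 1 passed (median -0.15), PPT1, a thioesterase that removes palmitate from proteins (-0.33 ± 0.11, adjusted p = 0.0472). SCARB2, a lysosomal membrane protein, had 0.26 ± 0.10 (adjusted p = 0.0923).

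Of 15 subunits of the proton pump that acidifies lysosomes 1 passed (median -0.12), ATP6V0E1 at -0.31 ± 0.10 (adjusted p = 0.0454), and ATP6V0D1 had -0.45 ± 0.16 (adjusted p = 0.0719). Of 20 autophagy genes 1 passed (median -0.07), GABARAP, a ubiquitin-like protein of the autophagosome membrane (-0.31 ± 0.08, adjusted p = 0.0148), and BECN1 had -0.25 ± 0.09 (adjusted p = 0.078). Between sires of a group, 9 of these 20 genes passed the moderated F test, beside 22% of all genes. GABARAP was among them (adjusted p = 1.2e-05). The other lists had fewer such calls. They were 0 of 9 lysosomal proteases, 1 of 4 inhibitors and 3 of 21 membrane proteins and hydrolases. Of the pump subunits 2 of 15 passed the F test, and of the sorting genes 1 of 9. Of 9 genes of sorting to the lysosome 0 passed (median -0.01), and IGF2R, which carries cathepsins there as a receptor of mannose 6-phosphate, had 0.22 ± 0.11 (adjusted p = 0.203) and GGA3 0.24 ± 0.14 (adjusted p = 0.325). All medians are set beside the -0.04 of all detected genes. The 3 calls between high and low muscling among these 78 genes (3.85%) are set beside the 7.78% of all genes.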

How the data were processed

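The authors deposited MAS5 signal intensities on a linear scale, 1 column per animal, from biotin-labelled RNA on GeneChip Bovine Genome arrays. The MAS5 version is not given in the sources used here. Each array had been scaled to a common mean with 2% trimmed at each end, which also ties each value to all others on its array. The log2 of the signal was taken with no further normalization. Symbols came from the platform annotation. Of 24016 probe sets other than controls 13292 had 1 symbol, 86 had several and 10638 had none. All 8 measured members also occur in the sheep annotation under the same symbol. A gene counted as detected from a mean signal of 61.8 upwards, which is the median of the non-control probe sets.

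Tests were run with limma 3.58.1 in R 4.3.3 and with permutations in Python 3.11.15 with scipy 1.17.1 and numpy 2.4.6. On simulated data for high against low muscling with 6360 genes, limma recovered 58% of those given a change of 0.5 (log2) and 89% at a change of 1, and made 23 false calls. Among all calls in this simulated set, the share of false ones was above the 0.05 that the adjusted p aims at. The members and gene lists were chosen with earlier results of these data known. The genes named are the members, the 2 genes most correlated with each, the 2 with the lowest p in every list and called lysosomal genes. Other called markers and the neighbours of the other CST3 probe sets were named after their values were seen. Alternatives covered scaling, floor, filter, probe sets, block, RNA quality and each sire family left out. No sequence was printed, since none of the tables used here holds one.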

Additional observations from a re-analysis of the deposited data

Results flagged for a closer look

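Single animals far from their sire family were looked for in 54 groups (9 detected probe sets in 6 sire families), where chance flags about 1 in 20. There were 3, all in CST3. In the brightest probe set, 1 of the 8 progeny of sire 16 had a signal of 4881.4, against 2803.2 to 3483.5 in the others. The same animal had 2939.1 in the third probe set, against 1985.6 to 2279.5. In the third probe set 1 of the 4 progeny of sire 7 had 2112.4, against 2393.4 to 2418.3.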

How the results depend on the processing

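No paired analysis was possible because no number in the labels is shared between the muscling groups. The 495 genes called between high and low muscling became 1586 without a block and 0 with sire means as samples (886 at an unadjusted p under 0.05), and 23 to 1221 when 1 sire family was left out (23 without sire 5, 29 without 16, 272 without 7, 290 without 2, 1221 without 17). The 2 called members became 1 with the mean over all probe sets, 4 without a block, 0 with sire means as samples and 0 to 3 with a family left out (0 without sire 5 or 16). CST3 was at -0.39 in its second probe set. Without 1 family CTSB ranged from -0.23 to 0.00045, CTSS from -0.47 to 0.22, CTSD from 0.10 to 0.60 and CTSZ from -0.74 to -0.31. The 1402 genes called between sires became 407 to 1389 with a family left out (407 without sire 11, 846 without 17). The 3 members called there became 1 with the mean over probe sets or without the filter, and 0 to 2 with a family left out (0 without sire 17, 1 without 11). The 7 pairs of members became 0 in high muscling alone, 3 in low muscling alone (of which 2 were among the 7), 2 with the mean over probe sets and 0 with sire means removed. CTSH with CTSK turned to -0.244 in high muscling alone and had 0.407 in low muscling alone. The 11 relations with marker means became 1 in high muscling alone and 8 in low muscling alone, where all 8 were among the 11. They became 7 with the mean over probe sets and 7 with sire means removed. Of those last 7, 6 were among the 11, and the other was CTSS with macrophage markers. CTSB with fibroblast markers turned to -0.0331 in high muscling alone and had 0.685 in low muscling alone (permutation test, adjusted p = 0.0035). The second CST3 probe set had 0.594 with macrophage and 0.335 with fibroblast markers, while the third had -0.481 and -0.390. The cause of these changes was not tested. Quantile normalization, median centring, the floor and the RNA quality covariate kept the calls of CTSH and CST3.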

Other observations

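Markers of fat cells and of endothelium did not pass between high and low muscling in limma. Of all detected genes, 21.8% had an unadjusted p under 0.05 there. Of 4 detected fat cell genes 0 passed (0 at an unadjusted p under 0.05), with FABP4 at -0.55 ± 0.44 (log2, SE; adjusted p = 0.509) and CIDEC at -0.16 ± 0.38 (adjusted p = 0.865). Of 5 detected endothelial genes 0 passed (1 at an unadjusted p under 0.05), with PECAM1 at -0.30 ± 0.12 (adjusted p = 0.129) and TEK at -0.28 ± 0.17 (adjusted p = 0.358). HBA, the 1 detected red blood cell gene, had 0.08 ± 0.21 (adjusted p = 0.882), and MYH7 of the muscle fibre list had 0.22 ± 0.14 (adjusted p = 0.375). Of 2 satellite cell markers 1 was measured and 0 were detected.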
